A study of Rattus norvegicus with 16 samples.

Results

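The ATF4 and amino acid response was followed through 10 of its genes in cultured rat muscle cells treated with an androgen receptor agonist. The genes were Atf4, Ddit3, Trib3, Asns, Chac1, Psat1, Phgdh, Slc7a11, Slc3a2 and Sesn2, taken as every probe set annotated with exactly one of these symbols. They had 13 probe sets, 3 for Trib3, 2 for Sesn2 and 1 for each of the others, of 31042 probe sets on the array (10 of 14217 genes). All 13 reached the mean signal of 300 required for testing, as did 20904 probe sets and 11286 genes in all. A gene with several probe sets was counted by its brightest.

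The cells were levator ani satellite cells (LASCs) at passage 5, which the labels call muscle satellite cells, the resident stem cells of muscle. The levator ani is a pelvic muscle that grows under androgens. They received 10 nM NARA, a nonsteroidal androgen receptor agonist, for 48 h or 4 h, or the vehicle alone, 0.2% DMSO, for the same times. All groups were in medium with 10% charcoal-stripped serum, from which steroids are largely removed. Each of the 4 groups had 4 Affymetrix Rat Genome 230 2.0 arrays, and 13 of the 16 arrays were used: 4 for NARA 48 h, 3 for vehicle 48 h (replicates 2, 3 and 4), 2 for NARA 4 h (replicates 2 and 3) and 4 for vehicle 4 h. Replicates are titled as biological, but no label says whether they were separate cultures or animals. The p-values below therefore set group differences only against the spread among these samples, and that spread may be technical. The small number of arrays limits precision.

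ATF4 is a transcription factor whose messenger RNA is translated best when the initiation factor eIF2alpha is phosphorylated, which happens during amino acid shortage, endoplasmic reticulum (ER) stress and other stresses. Its protein therefore need not follow its messenger RNA, and the arrays measured only the messenger RNA. ATF4 pairs with other leucine zipper proteins, such as C/EBP family members, on composite DNA elements, and raises genes for amino acid import, amino acid synthesis and the control of the response itself. In skeletal muscle the factor is best known from fasting and atrophy.

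The 250 bases before the start of transcription are shown for 3 of the genes: Psat1, the gene past the threshold at 48 h below, and Trib3 and Chac1, whose windows held the composite core. They are from RefSeq on GRCr8 and read 5′ to 3′ on the gene's own strand. The core searched was TGATGNAA on both strands, and capitals mark a match.
Psat1 (chr1:222645409-222645658, minus strand): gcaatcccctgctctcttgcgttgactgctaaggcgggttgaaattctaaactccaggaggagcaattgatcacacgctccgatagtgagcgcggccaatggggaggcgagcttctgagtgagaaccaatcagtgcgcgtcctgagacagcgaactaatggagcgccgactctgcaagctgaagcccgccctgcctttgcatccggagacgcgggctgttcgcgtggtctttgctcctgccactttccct
Trib3 (chr3:161275534-161275783, minus strand): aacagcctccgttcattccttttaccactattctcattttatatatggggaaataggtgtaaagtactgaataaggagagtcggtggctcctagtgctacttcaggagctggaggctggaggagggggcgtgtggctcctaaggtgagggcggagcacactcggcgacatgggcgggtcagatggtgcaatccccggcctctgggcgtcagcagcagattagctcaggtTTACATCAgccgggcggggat
Chac1 (chr3:126795881-126796130, plus strand): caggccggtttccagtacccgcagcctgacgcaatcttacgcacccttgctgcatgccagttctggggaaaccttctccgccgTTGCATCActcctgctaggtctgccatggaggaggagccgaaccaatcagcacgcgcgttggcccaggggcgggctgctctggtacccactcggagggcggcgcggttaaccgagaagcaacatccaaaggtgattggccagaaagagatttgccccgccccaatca
Both matches lie on the strand opposite to the gene. Windows from 250 bases before to 50 after the start were found for all 10 genes (11 windows, as Slc3a2 has 2), and 2 of the 10 genes held the core, against 1332 of 33469 rat promoter windows (3.98%). The ER stress response element, searched on both strands, was in no window of the 10 genes and in 22 of the 33469 (0.066%). A match is a run of letters and not a measured site, and a missing match says only that the letters are not in that window.

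The authors left out 3 arrays as outliers: 2 of the NARA 4 h group (replicates 1 and 4) and 1 of the vehicle 48 h group (replicate 1). Over the 20904 probe sets tested, the 13 arrays used correlated with each other at 0.928 to 0.962. NARA 4 h replicate 1 correlated with them at 0.583 to 0.603 and replicate 4 at 0.56 to 0.585. The summed signal of 11 liver genes was 1476881 and 1744047 on those 2 arrays, against 3044 to 4710 on the 13 used. Vehicle 48 h replicate 1 correlated with the others at 0.916 to 0.935. Among satellite cell markers, Pax7 and Myf5 were not analysed here and Myod1 was near 0 on some arrays, at 83.9 ± 87.2 (SD, n = 13 arrays). The other 9 markers of that list averaged between 325 (Vcam1) and 8548 (Sdc4), with Myog at 1117 ± 362, Cdh15 at 1275 ± 204 and Des at 774 ± 126. Fibroblast genes averaged between 255.5 (Tcf21) and 134203 (Col1a2), with Col1a1 at 72121 ± 12007. On the 13 arrays the 10 fibroblast genes summed to 445936 to 572424, against 11463 to 22313 for the satellite cell list. The cell name used here is that of the labels.

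At 48 h, 9 of the 10 genes had a higher mean in NARA than in vehicle, but only Psat1 passed the threshold. The median log2 difference over the 10 genes was 0.26, against -0.01 over all 11286 genes tested, of which 49.2% were positive. By limma with Benjamini-Hochberg adjustment over all probe sets, 1 of 10 was called higher and none lower, beside a background of 1.71% of genes called higher and 3.21% called in either direction. The signals of NARA and vehicle did not overlap, with NARA higher, for 3 of the 10 genes (Psat1, Slc3a2 and Trib3), against 8.21% of all genes. In RNA from whole cultures, fewer cells of a type and less RNA per cell cannot be told apart. Summed signals of marker lists also moved at 48 h: 10 satellite cell and myoblast genes summed to 11463 to 14602 in NARA and 18680 to 22313 in vehicle, 5 smooth muscle genes to 8991 to 12638 in NARA and 13683 to 15613 in vehicle, and 11 liver genes to 4145 to 4710.3 in NARA and 3044 to 3770.0 in vehicle. The ranges overlapped for 10 fibroblast genes (463313 to 572424 in NARA and 445936 to 546714 in vehicle) and for the endothelial and macrophage lists. Vehicle 48 h replicate 1, which the authors left out, gave 12126 for smooth muscle, within the NARA range. It gave 4886 for liver, above every NARA array, and 21975 for satellite cells, within the vehicle range. With that array put back, the NARA and vehicle ranges overlap for smooth muscle and liver. Only 5 of the 11 liver genes reached the signal minimum for testing. These sums of linear signals mostly follow the brightest genes of a list. In the satellite cell list these were Sdc4 and Cxcr4. They averaged 8548 (range 5194 to 12258) and 2848.5 (341 to 5191) over the 13 arrays. Each other gene of that list averaged 1275 (Cdh15) or less. In the smooth muscle list the brightest were Tagln (9821) and Acta2 (5347). Which genes moved a sum at 48 h was not tested, nor was the part of these lists in the results.

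Psat1 encodes phosphoserine aminotransferase, the second enzyme of serine synthesis from glycolytic carbon. Its signals at 48 h were 16675, 17634, 14434 and 15946 in NARA, against 10373, 11166 and 12024 in vehicle. Every NARA array lay above every vehicle array, and the NARA mean was 16172 ± 1349 (SD, n = 4) and the vehicle mean 11188 ± 826 (n = 3). The difference was 0.53 ± 0.12 on the log2(signal + 50) scale (SE), a fold of 1.44 with a 95% interval of 1.21 to 1.72 and an adjusted p of 0.0336. Leaving out any 1 array kept the difference between 0.48 and 0.58, but for 9 of the 13 arrays the adjusted p then passed 0.05, reaching 0.134 without vehicle 48 h replicate 2. The other such arrays were vehicle 48 h replicates 3 (0.11) and 4 (0.0515), NARA 48 h replicates 1 (0.0765), 2 (0.0761) and 4 (0.0736), vehicle 4 h replicate 4 (0.0527), and NARA 4 h replicates 2 (0.0538) and 3 (0.0537). Fitted on the 7 arrays at 48 h alone, the adjusted p was 0.128.

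Phgdh encodes phosphoglycerate dehydrogenase, which takes the first step of the same pathway. Its signals were 4898, 5095, 4049.9 and 3920.2 in NARA at 48 h, against 3995, 4192 and 4072 in vehicle. The NARA arrays lay on both sides of the vehicle arrays, and the log2 difference of 0.13 ± 0.14 did not pass the test (adjusted p = 0.718, 95% interval -0.18 to 0.43). Whether Psat1 and Phgdh differed in their response was not tested.

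Asns encodes asparagine synthetase, which makes asparagine with nitrogen from glutamine. Its signals at 48 h were 12245, 12551, 11328 and 9549 in NARA, and 9892, 9347 and 9173 in vehicle. NARA replicates 1, 2 and 3 were above all vehicle arrays and replicate 4 was within them. The difference was 0.26 ± 0.13 (adjusted p = 0.373, 95% interval -0.03 to 0.55). Chac1 encodes an enzyme that degrades glutathione. It gave 5576, 4977, 4414 and 4207 in NARA and 3970, 4166 and 4601 in vehicle, with overlapping groups and a difference of 0.17 ± 0.16 (adjusted p = 0.682).

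Slc3a2 and Slc7a11 encode membrane carriers: SLC3A2 (the heavy chain, also called CD98) pairs with light chains such as SLC7A11, and that pair takes up cystine in exchange for glutamate. Slc3a2 had signals of 13095, 12005, 11889 and 11363 in NARA at 48 h, against 9598, 9686 and 9119 in vehicle. The groups were separate, with means of 12088.0 ± 727 in NARA (SD, n = 4) and 9468 ± 305 in vehicle (n = 3), and the fold was 1.27. The log2 difference of 0.35 ± 0.10 had a 95% interval of 0.14 to 0.56 and an adjusted p of 0.085, which missed the threshold. Slc7a11 had signals of 4116, 4689, 3690.3 and 3123 in NARA, against 2736, 3332 and 3162 in vehicle. NARA replicate 4 lay within the vehicle arrays and the other 3 above them, and the difference was 0.33 ± 0.17 (adjusted p = 0.373).

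Trib3 encodes a pseudokinase that binds and restrains ATF4 and is itself a target of ATF4 and CHOP. Its brightest probe set gave 4092, 4972, 3366 and 3934 in NARA at 48 h, against 2834, 3111 and 2985 in vehicle, with no overlap. The difference was 0.44 ± 0.18 (95% interval 0.06 to 0.82), with an adjusted p of 0.239. The other 2 probe sets gave 0.38 and 0.39 with overlapping groups, and neither passed the test (adjusted p = 0.47 and 0.391).

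Atf4 itself differed little at 48 h. Its signals were 26115, 21144, 24600.3 and 22514 in NARA and 22732, 22536 and 19632 in vehicle, in overlapping ranges. The difference was 0.12 ± 0.11 (95% interval -0.13 to 0.37, adjusted p = 0.66), so the interval held no change larger than 0.37 on the log2 scale. Ddit3, which encodes CHOP, a transcription factor of the later stress response, gave 4183, 4085, 4750.0 and 3968 in NARA and 3263, 4119 and 3350.5 in vehicle. Vehicle replicate 3 lay within the NARA range, and the difference was 0.25 ± 0.12 (adjusted p = 0.363).

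Sesn2, which encodes sestrin 2, a leucine-binding inhibitor of mTORC1 signalling, was the single gene of the 10 with a lower mean in NARA at 48 h. Its brightest probe set had signals of 2279, 2357, 1760.3 and 2254 in NARA and 2916, 2554 and 1970.1 in vehicle, and the groups overlapped. The difference was -0.18 ± 0.18 (adjusted p = 0.681). The second probe set was dim, with 218, 440.0, 229 and 88.9 in NARA and 417, 428 and 313 in vehicle, and differed by -0.69 (adjusted p = 0.493).

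**Figure D1:**
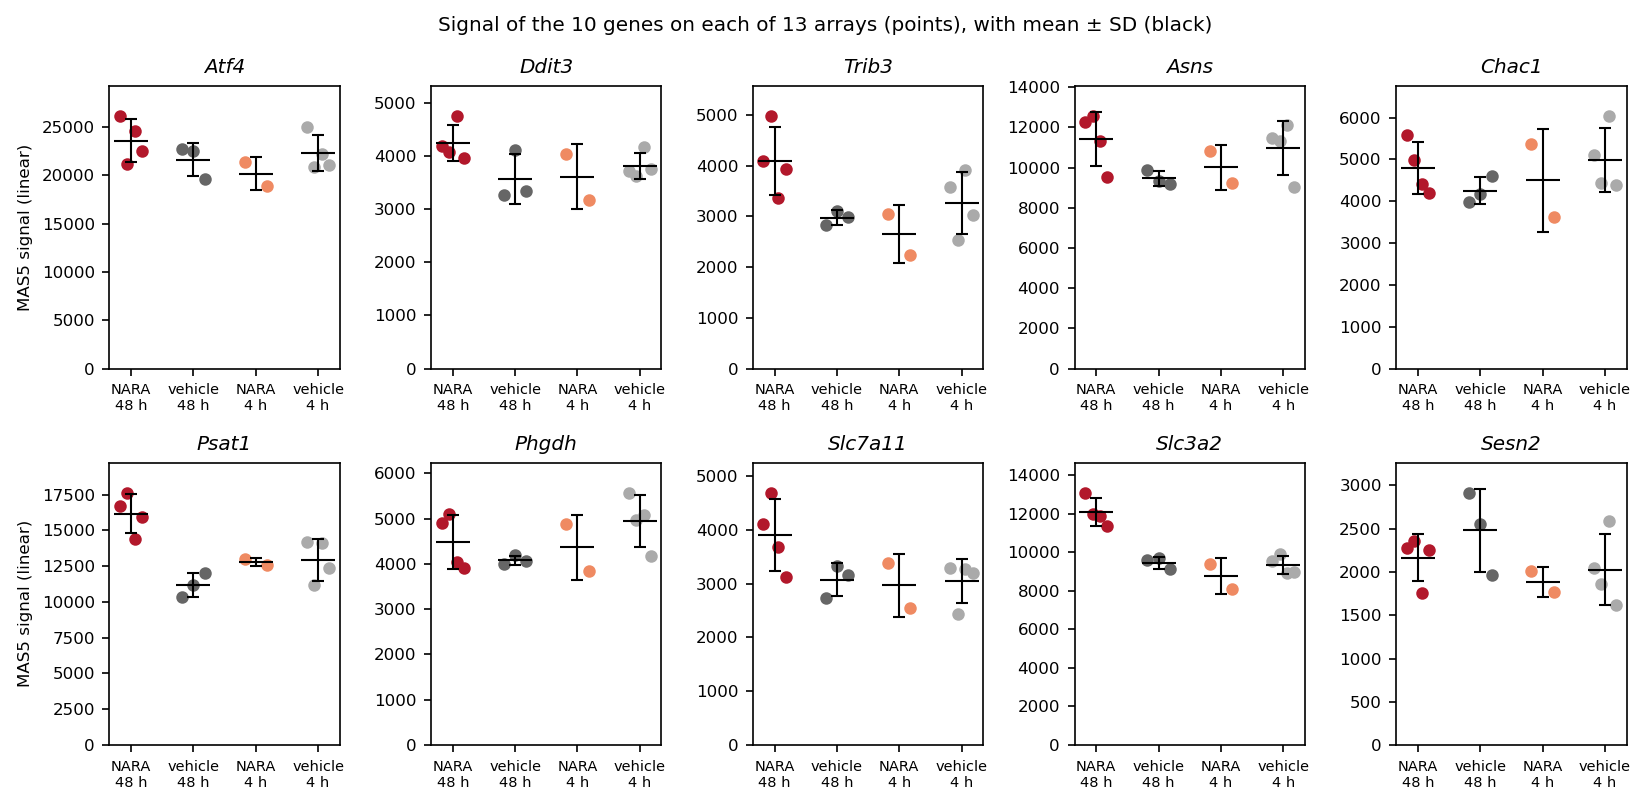
MAS5 signal (linear scale, starting at 0) of the brightest probe set of each of the 10 genes, by group, with 1 point for each of the 13 arrays and the mean ± SD in black. Psat1, Slc3a2 and Trib3 are the panels in which all 4 NARA arrays at 48 h lie above all 3 vehicle arrays at 48 h.

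After 4 h of treatment none of the 10 genes passed the test, and all 10 had a lower mean in NARA than in vehicle. The median log2 difference was -0.11 (range -0.29 for Trib3 to -0.01 for Psat1), against 0.00 over all genes, of which 49.5% were positive. limma called 0 of 10 genes, beside a background of 0.0% of the 11286 genes, and at an unadjusted p under 0.05 it called 0 of 10 against 4.28% of genes. The direction rested on 1 array: NARA 4 h replicate 3 was below replicate 2 for 10 of 10 genes. Without replicate 3 the median was 0.01 and 6 of 10 genes were higher in NARA, and without replicate 2 it was -0.24 and none was.

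For Psat1 the 4 h signals were 13005 and 12584 in NARA, against 14163, 11153, 14095 and 12378 in vehicle, so that both NARA arrays lay inside the vehicle range. Atf4 gave 21400 and 18940.4 in NARA and 24983, 20889.6, 22168 and 21094 in vehicle, with a difference of -0.14. Slc3a2 gave 9416 and 8119 in NARA and 9553, 9910.0, 8913 and 8998 in vehicle, a difference of -0.09. Replicate 3 was the lower NARA array in each of these 3 genes and the only one outside the vehicle range in Atf4 and Slc3a2.

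Trib3 gave 3048 and 2245 in NARA at 4 h, against 3572, 2523, 3915 and 3017 in vehicle, a difference of -0.29 in its brightest probe set. In another Trib3 probe set both NARA arrays (1829 and 1461) were below all 4 vehicle arrays (3081, 2971, 2802 and 1937). Its difference was -0.68 ± 0.26, with an adjusted p of 0.972. Of all probe sets tested, 6.96% were lower in NARA without overlap at 4 h. The remaining 6 genes had differences between -0.18 (Phgdh) and -0.04 (Slc7a11), with Chac1 at -0.16, Asns at -0.13, Ddit3 at -0.09 and Sesn2 at -0.08. All 10 brightest probe sets had an adjusted p of 1.00 to 3 digits.

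The late effect minus the early one was tested as an interaction. It was positive for 9 of 10 genes, against 49.8% of all genes, with a median of 0.35, but no gene passed the threshold, beside a background of 0.151% of genes. At an unadjusted p under 0.05, 3 of the 10 were higher, against 4.95% of all genes: Psat1 (0.54 ± 0.18, SE), Slc3a2 (0.44 ± 0.14) and Trib3 (0.73 ± 0.27). Their adjusted p-values in limma were 0.388, 0.388 and 0.449. Without NARA 4 h replicate 3 the median was 0.17, and without replicate 2 it was 0.53.

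**Figure D2:**
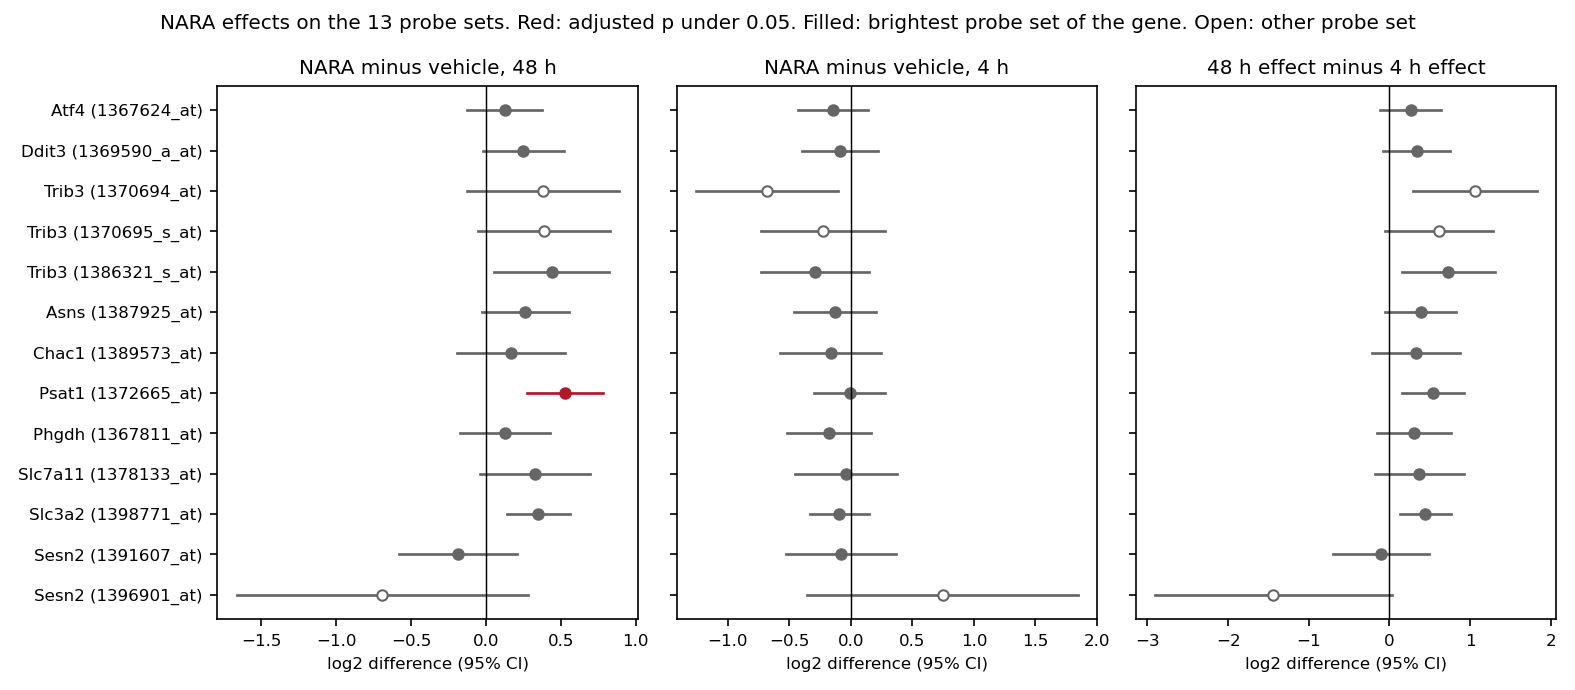
Log2 difference (x axis, with 95% interval) of each of the 13 probe sets between NARA and vehicle at 48 h, between NARA and vehicle at 4 h, and of the 48 h effect minus the 4 h effect. Psat1 at 48 h is the single probe set past the threshold, and the 3 Trib3 probe sets point the same way in each panel.

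The same groups were also compared over time, with the samples shared with the comparisons above. In NARA, 48 h against 4 h gave positive differences for all 10 genes, against 49.8% of all genes. The median was 0.23 and the range 0.04 (Phgdh) to 0.62 (Trib3). That median was 0.12 without NARA 4 h replicate 3 and 0.37 without replicate 2. None passed the test, beside 0.868% of genes called, and at an unadjusted p under 0.05 the count was 3 of 10, all higher, against 5.88% of genes. The groups did not overlap for Trib3, Psat1 and Slc3a2, a count to set against 11.1% of genes that were higher without overlap. Slc3a2 had the smallest adjusted p of the 10, at 0.0973 (0.46 ± 0.11). In vehicle, 48 h against 4 h gave 3 of 10 positive, against 50.4% of all genes. The median was -0.10 and the range -0.27 (Phgdh) to 0.29 (Sesn2). No gene was called, beside a background of 0.0% of genes, and 0 of 10 reached an unadjusted p under 0.05, against 7.87% of genes.

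Most of the 10 genes varied together from array to array, with Sesn2 the least like the rest. With each gene standardised over the 13 arrays, the mean over the 10 was 1.18, 1.06, 0.39 and 0.08 on the NARA 48 h arrays and -0.53, -0.19 and -0.68 on the vehicle 48 h arrays. It was 0.09 and -1.34 on the NARA 4 h arrays and 0.44, -0.48, 0.61 and -0.62 on the vehicle 4 h arrays. At 48 h the NARA arrays were all above the vehicle arrays in this mean, although NARA replicate 4 was the lowest of its group in 6 of 10 genes and replicate 2 the highest in 6 of 10. Trib3 followed the mean of the other 9 genes most closely over the 13 arrays (Pearson r = 0.87), then Asns (0.78) and Slc7a11 (0.78), and Sesn2 least (0.24). Atf4 had an r of 0.62. These correlations describe 13 arrays that share group and scaling.

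**Figure D3:**
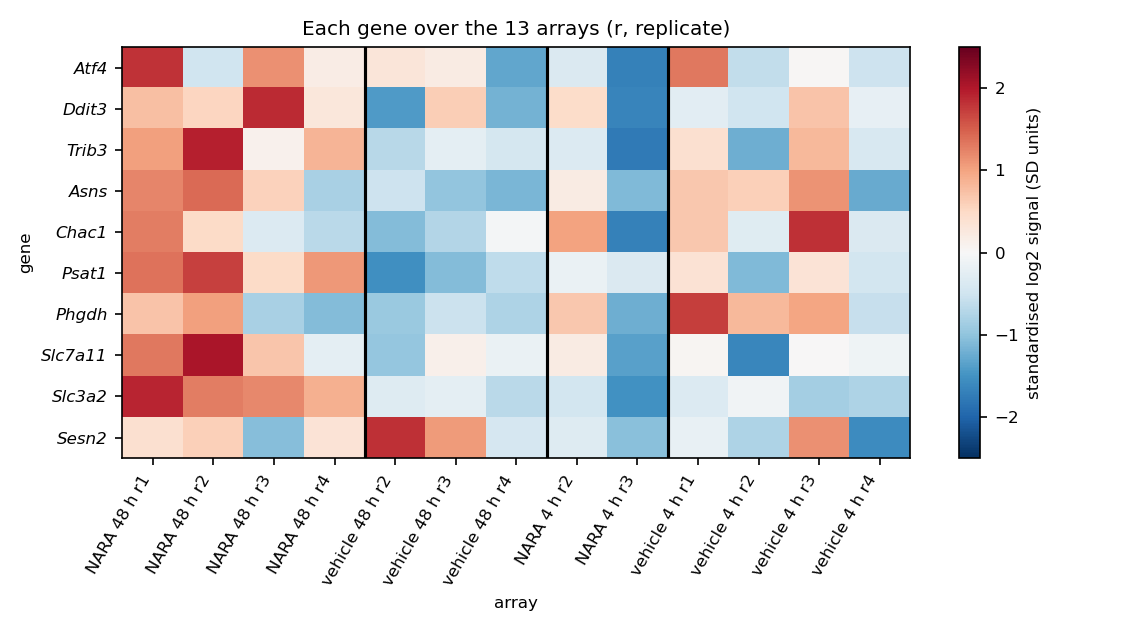
Standardised log2 signal (colour, in SD units over the 13 arrays) of the 10 genes (rows) on each array (columns, grouped by treatment and time, r for replicate). NARA 48 h replicates 1 and 2 are high in most rows, NARA 4 h replicate 3 is low in most rows and near the middle in Psat1, and Sesn2 is highest on vehicle 48 h replicate 2.

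Of the genes outside the 10, those with the profile most like their mean over the 13 arrays were Hspb6 (r = 0.904), Rabl3 (0.89), Ndufaf3 (0.882), Csf2ra (0.88) and Lrrc59 (0.876). Hspb6, which encodes a small heat shock protein, was higher in NARA at 48 h by 0.89 (adjusted p = 0.0289). Lrrc59 (0.43, adjusted p = 0.0728), Rabl3 (0.32, 0.333), Csf2ra (0.18, 0.605) and Ndufaf3 (0.16, 0.657) were not called in limma. The mean that all these genes were chosen to follow was itself higher on the NARA 48 h arrays than in vehicle. A positive difference at 48 h was therefore favoured by the choice, and these p-values are no separate test.

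Other genes of amino acid metabolism changed at 48 h, some by more than any of the 10. Among 15 measured genes of serine, glycine, one-carbon and proline synthesis, 4 rose and 1 fell, beside 1.71% of all genes called higher and 1.5% called lower, with a median of 0.19. Gpt2, a mitochondrial alanine aminotransferase, had signals of 3263, 2858, 3934 and 3195 in NARA, against 1576, 1817 and 1399.8 in vehicle, without overlap and with a difference of 1.03 ± 0.16 (adjusted p = 0.00475). Its other probe set gave 0.42 with overlapping groups and was not called (adjusted p = 0.17). Glul, glutamine synthetase, gave 9796, 9409.7, 9523 and 9743 in NARA and 5517, 5812 and 4328 in vehicle, also without overlap, and rose by 0.89 ± 0.11 (adjusted p = 0.000832). Its other 2 probe sets were called too, at 1.07 and 0.74.

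Bcat1, which transaminates branched-chain amino acids, averaged 18967 in NARA and 12278 in vehicle, a rise of 0.64 ± 0.11 (adjusted p = 0.0121), while its other probe set gave 0.54 with overlapping groups and was not called (adjusted p = 0.174). Aldh1l2, a mitochondrial folate enzyme, averaged 9147 in NARA and 5919 in vehicle, a rise of 0.63 ± 0.14 (adjusted p = 0.0313). Mthfd1l, a mitochondrial formate-producing enzyme, averaged 1716 in NARA, against 2929 in vehicle, lower by 0.74 ± 0.13 on the log2 scale (adjusted p = 0.0123). In vehicle its mean had been 2164 at 4 h, a difference over time of 0.42 (adjusted p = 0.553 in limma). The call for Aldh1l2 was lost without any 1 of the 7 arrays at 48 h (adjusted p 0.0588 to 0.0951), and that for Bcat1 without vehicle 48 h replicate 3 (0.0545). Fitted on the 48 h arrays alone, Mthfd1l (0.0849), Bcat1 (0.108) and Aldh1l2 (0.106) all lost their calls. Psph, the last enzyme of serine synthesis, differed by 0.27, Shmt2 by -0.10 and Mthfd2 by 0.27, and none of these 3 was called.

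Among 14 measured amino acid transporters 1 rose, beside 1.71% of all genes, and the median was 0.08. Slc7a6, a light chain of SLC3A2 that carries cationic amino acids and glutamine, had signals of 3482, 3113.5, 3128 and 3164 in NARA, against 1336, 1792 and 1994 in vehicle, with a difference of 0.91 ± 0.15 (adjusted p = 0.00661). Slc38a1, Slc1a4 and Slc38a2, which carry small neutral amino acids, differed by -0.30, -0.23 and -0.16 and were not called. None of 17 measured cytosolic aminoacyl-tRNA synthetases, the enzymes that charge transfer RNAs, was called in limma, beside 3.21% of all genes. At an unadjusted p under 0.05, 2 were higher and 2 lower, beside 8.27% and 8.88% of all genes. Their median was 0.04, with Tars1 at 0.45 and Yars1 at -0.32.

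Of 15 regulators of the response 1 fell, beside 1.5% of all genes, and 3 had positive differences, against 49.2% of all genes (median -0.19). Eif2b5, a subunit of the exchange factor that phosphorylated eIF2alpha blocks, averaged 1096 in NARA and 1599 in vehicle, a difference of -0.52 ± 0.11 (adjusted p = 0.0268), while its other probe set gave -0.38 with overlapping groups (adjusted p = 0.407). Its call was lost without vehicle 48 h replicates 2 (0.111) or 4 (0.0844) or NARA 48 h replicates 1 (0.0645), 3 (0.0551) or 4 (0.0664), and on the 48 h arrays alone (0.139). The eIF2alpha kinases Eif2ak2 (PKR), Eif2ak1 (HRI) and Eif2ak3 (PERK) differed by -0.52, -0.20 and 0.25, with adjusted p of 0.0932, 0.346 and 0.346.

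Among 18 measured other reported ATF4 or stress targets, 2 rose, beside 1.71% of all genes. Of the 18, 6 had positive differences, against 49.2% of all genes, and the median was -0.11. Vldlr, a lipoprotein receptor, averaged 7495 in NARA and 4720.0 in vehicle, a rise of 0.66 ± 0.10 (adjusted p = 0.00406), while its other 3 probe sets were not called. Ddit4 (REDD1), an inhibitor of mTORC1 that androgens and glucocorticoids are also known to affect, averaged 4835 in NARA and 2649 in vehicle, a rise of 0.86 ± 0.16 (adjusted p = 0.0128). The call for Ddit4 was lost without vehicle 48 h replicate 2 (0.72, adjusted p = 0.0596), and on the 48 h arrays alone those for Ddit4 (0.088) and Vldlr (0.065) were. Gadd45a (0.38) and Bbc3 (-0.37) missed the threshold, with adjusted p of 0.0879 and 0.0889.

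Genes of ER folding, the branch of the stress response under ATF6 and XBP1, had 17 of 18 positive differences at 48 h, against 49.2% of all genes. Their median was 0.37 and they had 3 calls, all higher, beside 1.71% of all genes called higher. Manf, a secreted ER stress protein, averaged 18664 in NARA and 10486 in vehicle, a rise of 0.83 ± 0.11 (adjusted p = 0.00181). Hspa5 (BiP, the main ER chaperone) averaged 45696 in NARA and 29529 in vehicle, a difference of 0.63 ± 0.11 (adjusted p = 0.00981). At 4 h it had averaged 38092 in NARA and 39695 in vehicle. From 4 h to 48 h it differed by -0.42 in vehicle and by 0.27 in NARA, both without overlap (adjusted p in limma of 0.455 and 0.447). Of all genes, 5.17% were lower without overlap over time in vehicle and 11.1% higher in NARA. Sdf2l1, an ER chaperone partner, averaged 3703 in NARA and 2224 in vehicle at 48 h, a rise of 0.72 ± 0.13 (adjusted p = 0.0116). The call was lost for Hspa5 without vehicle 48 h replicate 2 (0.0501) and on the 48 h arrays alone (0.0671), and for Sdf2l1 without vehicle 48 h replicate 3 (0.0553). At an unadjusted p under 0.05, 11 of the 18 were higher, beside 8.27% of all genes. The lists were chosen with earlier results of these data known, and counts of calls describe them without a test of the list.

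**Figure D4:**
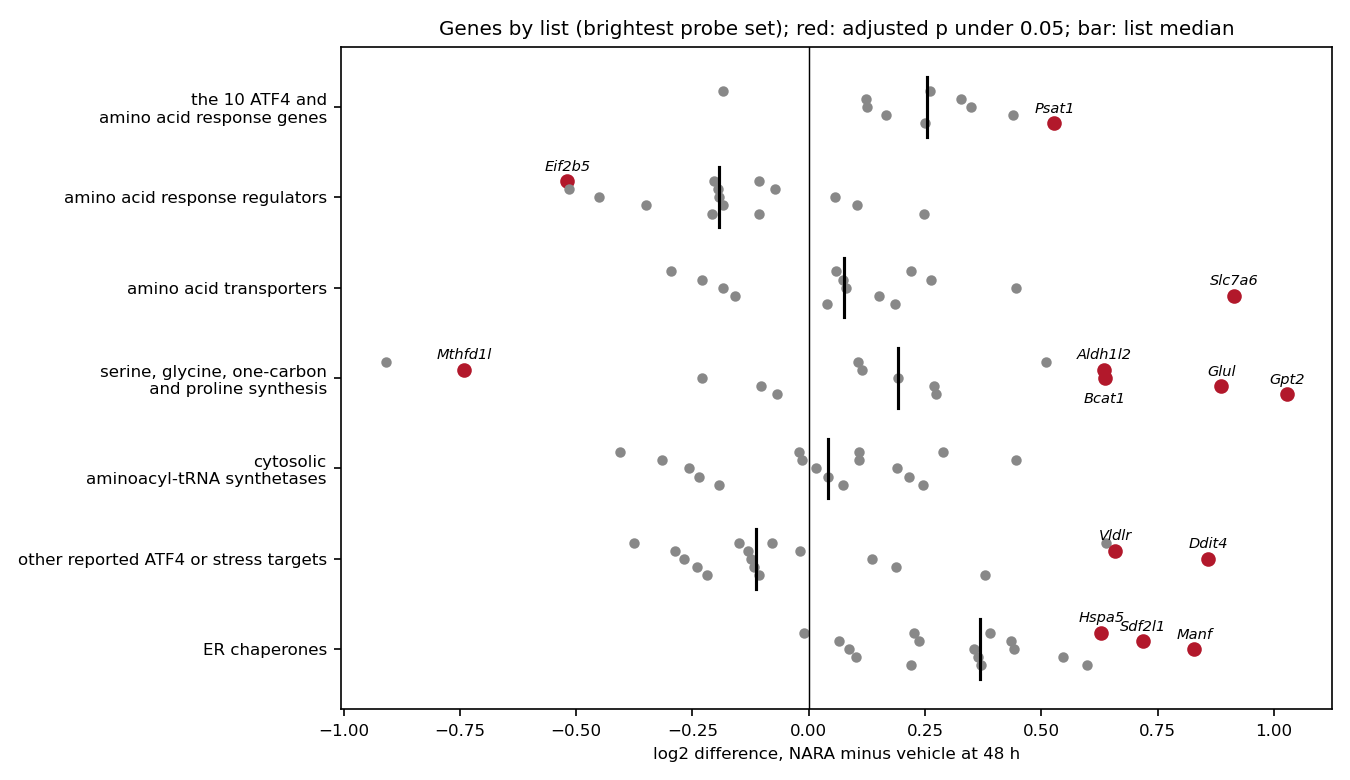
Log2 difference between NARA and vehicle at 48 h (x axis) of each measured gene by list (rows), with the brightest probe set of a gene as 1 point, calls in red and the list median as a bar. The calls lie between -0.74 (Mthfd1l) and 1.03 (Gpt2). The 18 genes of ER folding (row labelled ER chaperones) have the list median farthest to the right, at 0.37.

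At 4 h limma called 0 genes in each of these 6 lists, beside 0.0% of all genes. List medians lay between -0.08 (aminoacyl-tRNA synthetases) and 0.05 (genes of ER folding). Glul had signals averaging 8305 in NARA and 5178 in vehicle at 4 h, a difference of 0.68 ± 0.12 with an adjusted p of 0.248. Its other 2 probe sets gave 1.06 (adjusted p = 0.0704) and 0.56 (0.625), and all 3 were higher in NARA without overlap. So were 7.32% of all probe sets tested. Over the 6 lists 1 gene was higher among those of serine, glycine, one-carbon and proline synthesis and 1 among the other targets at an unadjusted p under 0.05. Between 0 and 2 genes of a list were lower. Of all genes, 1.62% were higher and 2.66% lower at that p.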

How the data were processed

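RNA of 16 samples was measured on 1 Affymetrix Rat Genome 230 2.0 array each. The authors deposited MAS5 intensity values (signals on a linear scale), scaled to a trimmed mean of 1500, per the series' design text and the submitters' processing notes. The labels' protocols give a Trizol extraction and the design text a column kit. The 13 arrays that the authors kept were used, with no further scaling. Group means of log2(signal + 50) were fitted with limma 3.58.1 (R 4.3.3; lmFit, then eBayes) over the 20904 probe sets whose mean signal reached 300. Changes are on that scale, which understates those of dim probe sets. Two-sided p-values were adjusted by Benjamini-Hochberg over all tested probe sets, and a call is an adjusted p under 0.05. The script was tested on simulated data.

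Gene names are those of the platform annotation, checked against RefSeq (20758 IDs matched, 0 symbols changed); 20826 probe sets have 1 symbol, 436 several and 9780 none. The members and lists were chosen with earlier results of these data known. Beside the 10 genes, the text names from each list up to 4 genes per comparison with the smallest p and any called, and the 5 genes of most like profile; Psph, Shmt2 and Mthfd2 were added after their values were seen. Of the lists, Slc36a1, Gdf15 and Fgf21 were under the minimum, and some other genes are not reported here. Alternatives were other array sets, each array left out, quantile scaling, other offsets and minimums, another prior and the replicate number as a block.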

Additional observations from a re-analysis of the deposited data

Results flagged for a closer look

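Slc7a11 had a signal of 2435 on vehicle 4 h replicate 2, against 3199 to 3291 on the other 3 vehicle 4 h arrays, a gap of 0.892 of the range of the 4. It was the single such array among 26 sets of 4 arrays examined, and chance marks about 1 in 20. On the NARA 4 h arrays that the authors left out, the brighter Sesn2 probe set gave 3519 on replicate 1 and 2739 on replicate 4. Both were above the vehicle 4 h arrays (1613 to 2586), and replicate 4 was within the range of the vehicle 48 h arrays used (1970.1 to 2916). The dimmer one gave 1736 on replicate 1 and 1939 on replicate 4, against 93.9 to 433 on the vehicle arrays. These arrays carried the liver signals described above.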

How the results depend on the processing

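With 2 to 4 arrays a group, small differences cannot be resolved, and the count of called genes among the 10 at 48 h depended on the settings. It was 1 as reported, 0 with all 16 arrays, with no signal minimum (Psat1 adjusted p = 0.0838), with a replicate block (Psat1 0.50, adjusted p = 0.132) and with only the groups compared in the fit (0.128). It was 2 (Psat1 and Slc3a2) with vehicle 48 h replicate 1 put back, at a signal minimum of 1000 and under a prior both trended and robust, and 0 to 1 on leaving out 1 array. Over all probe sets the 586 calls at 48 h became 36, 355, 312 and 218 under the first 4 of these settings and 774, 1069 and 1098 under the next 3. For 48 h against 4 h in NARA the count was 1 (Slc3a2) at the minimum of 1000 and under the changed prior. With all 16 arrays the median of the 10 genes was -0.64 at 4 h, 0.88 for late minus early and 0.79 for time in NARA. On leaving out 1 array these medians ranged from -0.24 to 0.01, from 0.17 to 0.53 and from 0.12 to 0.37. Of the 12 list genes called at 48 h, 10 lost their call with all 16 arrays (all but Glul and Manf), 7 with only the groups compared, 6 with the replicate block (Aldh1l2, Bcat1, Eif2b5, Hspa5, Mthfd1l and Sdf2l1) and 2 with no signal minimum (Aldh1l2 and Eif2b5). The cause was not tested. Same-numbered arrays did not deviate together (r from -0.036 to 0.039 over 16 pairs, and 2 of 13 arrays were closest to their own number). With 2 to 4 arrays a group, this cannot show whether equal numbers mark samples of 1 culture or animal.

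Differences that changed sign were all uncalled. In the replicate block these were Atf4 for time in vehicle (0.011) and Psat1 at 4 h (0.036). Sesn2 was 0.27 at 4 h and -0.17 for time in NARA with all 16 arrays, and 0.75 and -0.83 in its other probe set. On leaving out 1 array, differences at 4 h ranged from -0.26 to 0.085 for Ddit3, -0.44 to 0.11 for Chac1, -0.079 to 0.035 for Psat1, -0.24 to 0.16 for Slc7a11, -0.20 to 0.013 for Slc3a2 and -0.18 to 0.039 for Sesn2. For time in NARA they ranged from -0.17 to 0.39 for Chac1 and -0.13 to 0.21 for Phgdh. For time in vehicle they ranged from -0.079 to 0.026 for Atf4, -0.083 to 0.10 for Slc7a11 and -0.002 to 0.048 for Slc3a2. Late minus early ranged from -0.26 to 0.022 for Sesn2.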

Other observations

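On the NARA 4 h arrays left out by the authors (replicates 1 and 4), the amino acid enzymes and the cystine carrier of the 10 genes were far below the vehicle 4 h arrays. Asns had signals of 389 and 454 there, against 9030 to 12094 on the vehicle 4 h arrays. Psat1 had 721 and 681, against 11153 to 14163, and Slc7a11 had 93.6 and 57.7, against 2435 to 3291. Atf4 had 9497 and 9738, against 20890 to 24983. These are values of single arrays with liver signals, and no test was made of them.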
